A study of Gallus gallus with 16 samples.

Results

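The transcripts of 10 genes that mark macrophages were measured in chicken ovarian cancer (COVCAR) cultures by their symbols in the deposited count table: LYZ, CSF1R, CD74, C1QA, C1QB, C1QC, MARCO, SPI1, CYBB and CTSS. All 10 symbols were found among the 23910 genes of the table. They were chosen as a list of markers and not by their level in these libraries, though with earlier results of these data known.

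The cultures were 4 primary COVCAR cell lines, named C5, C7, C9 and C11. Each line was grown from the ascites, the fluid that collects in the body cavity, of 1 hen with ovarian endometrioid adenocarcinoma. Cells of C5, C7 and C9 were at passage 3 and those of C11 at passage 2. In serum-free medium on ultra-low attachment plates, all lines received metformin, a biguanide used against diabetes, at 0.5, 1 or 2 mM or none (control) for 24 h. The medium of every group, control included, held bovine insulin and recombinant human epidermal growth factor. There was 1 RNA library per line and dose, so that each dose group held n = 4 lines and the series 16 libraries. No line was derived more than once, and a difference between lines is therefore a difference between 4 single cultures from 4 hens. Where C11 differs from the other lines, line and passage cannot be told apart.

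Macrophages arise from myeloid precursors under the transcription factor PU.1 (encoded by SPI1) and live on signals through the receptor CSF1R. They engulf particles, which they recognise through scavenger receptors such as MARCO and through opsonins such as complement C1q. They kill and digest what they take up with lysozyme (LYZ), with oxidants made by the NADPH oxidase (CYBB) and with lysosomal proteases such as cathepsin S (CTSS), and they present peptides on MHC class II with the help of its invariant chain (CD74). Macrophages are a regular component of peritoneal fluid and of malignant ascites.

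Of the 16 libraries, 4 had their closest match (by correlation of log2 CPM, the counts scaled to library size) in a library of another line. These were labelled C5 at 2 mM, C7 at 0.5 and 1 mM and C11 at 0.5 mM. Their highest r with a library of their own line was -0.35, -0.15, 0.28 and -0.24, in this order. With a library of another line it was 0.63, 0.57, 0.49 and 0.52. The library labelled C11 at 0.5 mM correlated with the other 3 C11 libraries at r between -0.49 and -0.24 and with the 4 C9 libraries at r between 0.24 and 0.52 (centred log2 CPM of 9708 genes). It also held 192 CPM of CALB2 and 285 CPM of PDGFRA, against at most 0.75 and 17.1 CPM in the other C11 libraries. Library totals lay between 34724071 and 42531887 counts, at which 3 counts correspond to between 0.0667 and 0.0958 CPM. Long genes were favoured over short ones in 7 libraries and the reverse held in 9, by the slope of each library's log2 CPM on log2 exonic length. The 7 were the 4 C9 libraries, C5 at 2 mM, C7 at 0.5 mM and C11 at 0.5 mM. The slope was 0.12 in C11 at 0.5 mM and between -0.12 and -0.10 in the other C11 libraries. LYZ, with 584 exonic bases, is the shortest of the macrophage genes listed. The part of gene length in the level of C11 at 0.5 mM was not tested. For the calls between lines, the means of C11 and the comparison at 0.5 mM, values with and without the C11 library at 0.5 mM are given. In the fits between lines, C5 at 2 mM and C7 at 0.5 and 1 mM were left out only with their whole line or dose group. The means of C5 and C7 include them.

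The macrophage transcripts were concentrated in C11, the only line at passage 2. Summed over the 10 genes, the level was 296, 359 and 328 CPM in C11 at control, 1 mM and 2 mM and 116 CPM in C11 at 0.5 mM. C5 had between 71.2 and 133 CPM, C7 between 64.5 and 127 CPM and C9 between 56.6 and 79.0 CPM. The lowest of the 3 high C11 libraries was thus above the highest library of every other line. C11 at 0.5 mM lay within the range of C5 and C7. CTSS was the largest part of the sum in every library, with 78.8 CPM in C11 at 0.5 mM and 40.0 to 67.8 CPM in C5. In C5, CD74 added 12.3 to 49.6 CPM. In bulk RNA, fewer cells of a type and less RNA per cell cannot be told apart. The members did not all follow this sum, and the heatmap of log2 CPM shows 3 different patterns, led by LYZ, by the C1q genes and by CD74.

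**Figure D1:**
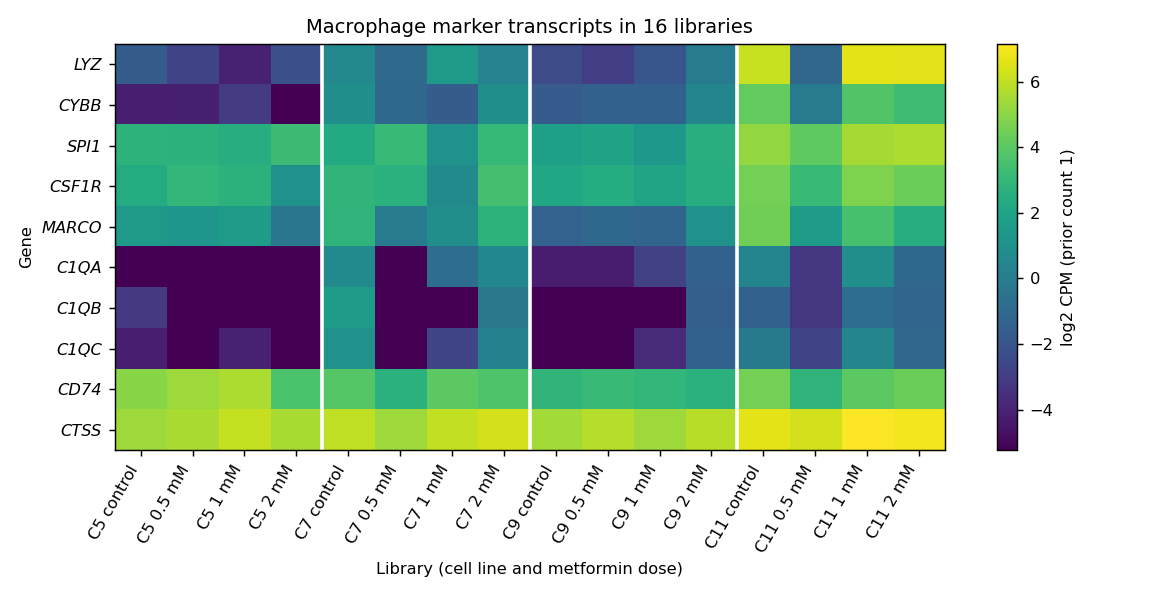
Level of the 10 macrophage marker genes (rows) in the 16 libraries (columns, ordered by cell line and metformin dose), as log2 CPM with a prior count of 1 (colour scale). The 3 C11 libraries at control, 1 mM and 2 mM are brightest for LYZ, CYBB, SPI1 and CSF1R. The C1q genes are dark in C5, in C7 at 0.5 mM and in C9 at control and 0.5 mM. CD74 is brightest in C5 at control, 0.5 mM and 1 mM.

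LYZ, the secreted enzyme that cleaves bacterial cell walls and is made in quantity by chicken macrophages, had the widest range of the list. C11 held 70.0 CPM at control, 101 CPM at 1 mM and 95.6 CPM at 2 mM, which are 2710, 3737 and 3345 counts. The library labelled C11 at 0.5 mM held 0.43 CPM (17 counts), so that the mean of the other 3 was 205-fold above it.

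The LYZ level of C7 was 1.48, 0.49, 2.65 and 1.17 CPM at control, 0.5, 1 and 2 mM. In C9 it was 0.17, 0.10, 0.24 and 0.84 CPM, and in C5 0.31, 0.12, 0.032 and 0.19 CPM. The lowest of the 3 high C11 libraries was 26.4-fold above the highest of the 12 libraries of the other lines, and the ranges of C5 and C9 overlapped. LYZ (GRCg6a chr1:35542896-35546583, plus strand) shares 421 exonic bases, 72.1% of its exonic length, with YEATS4 on the same strand, and the authors' counting gives a read in such bases to both genes. YEATS4 had 596 to 1248 counts in the 13 libraries where LYZ had 1 to 119 counts, and 3195, 3950 and 3646 counts in C11 at control, 1 mM and 2 mM. The other 9 genes share no exonic bases with a gene on their strand.

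CYBB (chr1:114457437-114478974, minus strand) encodes the catalytic subunit of the phagocyte NADPH oxidase. Its level was 18.3, 0.92, 13.7 and 9.89 CPM in C11 and 1.87, 0.44, 0.31 and 1.90 CPM in C7 (control, 0.5, 1 and 2 mM). C9 had 0.29, 0.35, 0.36 and 1.33 CPM, and C5 had 1, 1, 3 and 0 counts, all at or under 0.096 CPM. C11 at control, 1 mM and 2 mM stood at least 5.22-fold above every library of the other lines, while C11 at 0.5 mM fell inside the range of C7 and C9.

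SPI1 (chr5:23185094-23206765, plus strand) was detected in all 16 libraries. C11 had 35.8, 16.9, 44.2 and 50.0 CPM at control, 0.5, 1 and 2 mM. C5 had 6.78, 6.69, 5.59 and 9.61 CPM and C7 5.01, 8.95, 2.16 and 8.37 CPM. C9 had 3.33, 3.70, 2.52 and 5.97 CPM. For this gene every C11 library, that at 0.5 mM included, was above the highest library of the other lines, while the ranges of C5, C7 and C9 overlapped.

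CSF1R (chr13:13980059-13997910, plus strand), the receptor tyrosine kinase for CSF1 and IL34, was also detected throughout. Its level in C11 was 23.5, 8.91, 26.7 and 20.9 CPM. The other lines gave 5.17, 7.68, 6.61 and 2.1 CPM (C5), 7.30, 6.40, 1.56 and 11.3 CPM (C7) and 4.51, 5.43, 3.99 and 5.50 CPM (C9). The 3 high C11 libraries were at least 1.85-fold above all others, and C11 at 0.5 mM was below C7 at 2 mM.

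MARCO (chr7:28482051-28491954, minus strand), a scavenger receptor of tissue macrophages, separated the lines less. C11 had 22.0, 3.03, 11.6 and 5.49 CPM in the same order of doses. C7 had 7.15, 0.88, 1.82 and 6.89 CPM, so that C7 at control and at 2 mM exceeded C11 at 2 mM. C5 had 2.67, 2.36, 3.04 and 0.75 CPM, and C9 had 0.36, 0.45, 0.41 and 2.13 CPM. The highest C9 value was again that at 2 mM, as for LYZ and CYBB.

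The 3 chains of complement C1q, the recognition protein of the classical pathway, are encoded side by side on the minus strand of chromosome 21 (C1QB at chr21:6073556-6075682, C1QC at chr21:6076987-6078857 and C1QA at chr21:6079357-6081398). They were scarce everywhere, and their raw counts are given. C1QA had 52, 0, 25 and 47 counts in C7 and 48, 3, 67 and 16 counts in C11 at control, 0.5, 1 and 2 mM. In C9 it had 1, 1, 5 and 14 counts. In C5 it had 0 counts in all 4 libraries, which allows up to 3 counts or between 0.080 and 0.096 CPM per library.

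C1QC gave 71, 0, 6 and 38 counts in C7, 32, 5, 48 and 15 counts in C11, 0, 0, 2 and 14 counts in C9 and 1, 0, 1 and 0 counts in C5. C1QB gave 97, 0, 0 and 26 counts in C7, 14, 3, 21 and 14 counts in C11, 0, 0, 0 and 13 counts in C9 and 3, 0, 0 and 0 counts in C5. All 3 chains were above 3 counts in C7 at control and 2 mM, in C9 at 2 mM and in the 3 C11 libraries other than that at 0.5 mM, and C7 at control was highest for C1QB and C1QC. C7 at 0.5 mM had 0 counts for all 3 chains. C7 at 1 mM had 25 counts of C1QA and 6 of C1QC but none of C1QB. The 3 chains were in different ratios in different libraries.

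**Figure D2:**
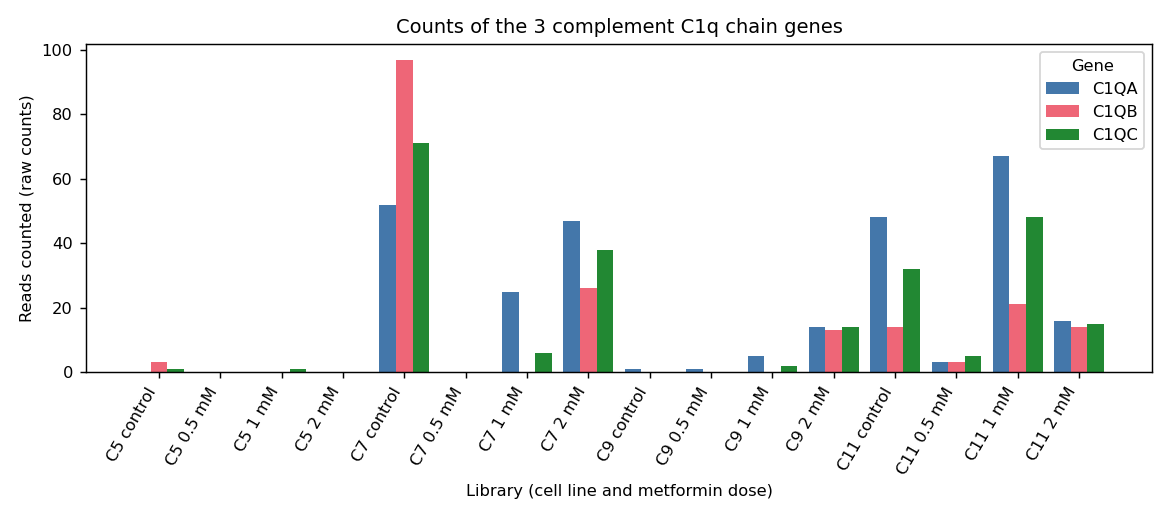
Raw counts (bars, y axis) of C1QA, C1QB and C1QC in the 16 libraries, ordered by cell line and dose along the x axis. At least 1 chain is above 3 counts in C7 at every dose but 0.5 mM, in C9 at the 2 highest doses and in all of C11, and none is in C5.

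CD74 (chr13:13851648-13855558, plus strand) followed another order. Its highest levels were in C5, with 31.3, 39.9 and 49.6 CPM at control, 0.5 and 1 mM and 12.3 CPM at 2 mM. C11 had 23.4, 6.95, 16.4 and 20.8 CPM, and C7 had 14.8, 6.33, 16.5 and 13.2 CPM. C9 was lowest on average, with 7.21, 8.67, 7.90 and 6.45 CPM. The ranges of C7 and C11 overlapped. C5 overlapped with them only through its library at 2 mM, one of those whose closest match is another line. In C5, then, the invariant chain was abundant where LYZ, CYBB and the C1q chains were each at or under 0.31 CPM.

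CTSS (chr25:165228-169865, minus strand), the cathepsin that trims the invariant chain, was abundant in every library. C11 had 101, 78.8, 142 and 124 CPM. C7 had 61.6, 41.0, 64.5 and 81.2 CPM, C5 had 40.0, 48.6, 67.8 and 46.3 CPM and C9 had 43.2, 54.8, 41.0 and 55.7 CPM. The highest library was only 3.55-fold above the lowest, and the 3 high C11 libraries were at least 1.24-fold above all others.

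**Figure D3:**
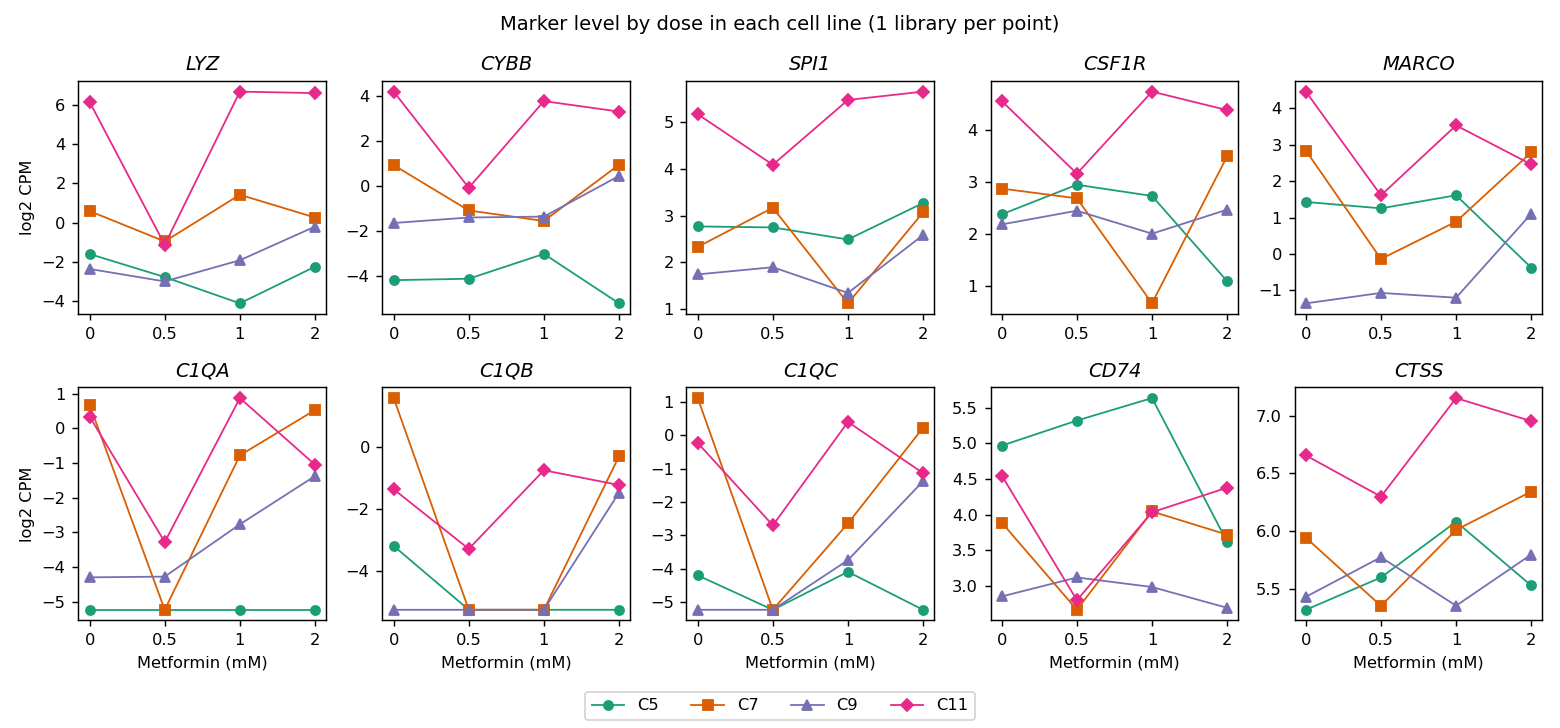
Level of each of the 10 genes as log2 CPM (y axis, prior count 1) at 0, 0.5, 1 and 2 mM metformin (x axis), with 1 point per library and a line joining the libraries of each cell line. C11 drops at 0.5 mM for all 10 genes and stands above the other lines at the other doses for LYZ, CYBB, SPI1, CSF1R and CTSS, and C5 is highest for CD74 at control, 0.5 mM and 1 mM.

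Per length, as TPM (transcript abundance scaled to a common total) computed from the counts and the deposited exonic lengths, the genes could be compared with each other. In C11 the mean level was 211 ± 146 TPM for LYZ (SD, n = 4 libraries), 18.5 ± 7.40 TPM for CD74, 8.77 ± 3.17 TPM for CSF1R and 1.31 ± 1.14 TPM for C1QA. In C5 the order was different, with 32.2 ± 12.5 TPM for CD74, 2.1 ± 0.81 TPM for CSF1R and 0.50 ± 0.36 TPM for LYZ. LYZ was thus above CD74 and CSF1R in C11 and below both in C5. The large SD of LYZ in C11 includes the library at 0.5 mM, which had 1.56 TPM where the highest of the other 3 had 323 TPM. Without that library the C11 means were 281 ± 49.2 TPM for LYZ (SD, n = 3 libraries), 21.8 ± 3.98 TPM for CD74, 10.2 ± 1.46 TPM for CSF1R and 1.70 ± 1.00 TPM for C1QA.

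By mean CPM over its 4 libraries, C11 was first for 7 of the 10 genes. The exceptions were C1QB and C1QC, where C7 was first, and CD74, where C5 was first. For LYZ the order was C11 (66.7 ± 46.2 CPM, SD, n = 4 libraries), C7 (1.45 ± 0.90), C9 (0.34 ± 0.34) and C5 (0.16 ± 0.12). C9 and C5 did not differ beyond their spread. For SPI1 it was C11 (36.7 ± 14.4 CPM), C5 (7.17 ± 1.72), C7 (6.12 ± 3.16) and C9 (3.88 ± 1.48), of which C5 and C7 lay within each other's spread. Over its 3 other libraries, C11 had 88.7 ± 16.5 CPM of LYZ and 43.3 ± 7.14 CPM of SPI1.

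To ask whether the lines differed beyond the spread among the libraries of a line, the 3 line coefficients were tested jointly with edgeR's quasi-likelihood F test, with dose as a factor, over the 16 libraries. A gene was called at a p-value under 0.01 and a Benjamini-Hochberg adjusted p-value under 0.05. Of the 10 macrophage genes, 9 were called, where 14.8% of the 14384 genes tested were called. The adjusted p-values were 0.00092 for SPI1, 0.0015 for LYZ, 0.0025 for CYBB, 0.0099 for CTSS and 0.027 for CD74. C1QA had 0.029, MARCO 0.047, CSF1R 0.047 and C1QC 0.0499, which is next to the threshold. C1QB was not called (adjusted p = 0.11). DESeq2 called the same 9 genes, with 31.6% of all genes called, and so did edgeR with the length slope as a covariate, with 21.4%. The replicate unit of this test is a library of the same culture, so the test speaks of these 4 cultures and not of hens.

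Without the C11 library at 0.5 mM, 7 of the 10 genes were called, where 18.5% of all genes were. The genes no longer called were MARCO (adjusted p = 0.0500 by edgeR, just above the threshold) and C1QC (0.077), beside C1QB (0.17), while LYZ was at 8.9e-05. Without C11 altogether, CD74 alone was called (adjusted p = 0.040), where 4.96% of all genes were, with LYZ at 0.074, CYBB at 0.070 and CTSS at 0.42 by the same edgeR test. Without C9, 4 genes were called (LYZ, CYBB, SPI1 and CTSS), where 2.32% of all genes were. Without C5 there were 6, beside 19.2% of all genes, and without C7 8, beside 15.5%. Without the control libraries SPI1 alone was called (0.81% of all genes), and without those at 1 mM CYBB and SPI1 (1.03%). The call of CD74 was lost without C9 (adjusted p = 0.19). With the libraries of C11 at control, 1 mM and 2 mM set against the 13 others, with no test, LYZ, CYBB, SPI1, CSF1R and CTSS did not overlap, and neither did 520 of the 14384 genes (3.62%).

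Across the doses the question was whether metformin changed the content of macrophage transcripts. The summed level was 137 ± 108 CPM in the control group (SD, n = 4 lines), 89.9 ± 24.8 CPM at 0.5 mM, 160 ± 137 CPM at 1 mM and 151 ± 120 CPM at 2 mM. The groups overlapped at every dose, since each held 1 C11 library and 3 of other lines. At 0.5 mM the group mean was lowest and its SD smallest, and that group holds the C11 library that stands apart from its line. Without it the sum at 0.5 mM was 81.1 ± 21.5 CPM over the other 3 lines.

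No macrophage gene was called at any dose. At 2 mM, 0 of the 10 genes were called by edgeR, where 0% of 13289 genes were called. None of the 10 had an unadjusted p under 0.05, against 10.6% of all genes (5% higher and 5.61% lower). By the fold change, 3 were higher and 7 lower (49.4% of all genes were lower), with a median of -0.44 on the log2 scale against a median of 0.01 over all genes. At 1 mM, 8 were tested and 0 called by edgeR (0% of 13330 genes), with 0 of the 8 and 4.77% of all genes under an unadjusted p of 0.05. At 0.5 mM, 7 were tested and 0 called by edgeR (0% of 13318 genes), with 1 of the 7 (LYZ) and 1.1% of all genes under an unadjusted p of 0.05. DESeq2 called 0 of the macrophage genes to which it gave a p at any dose, which were 9 at 0.5 mM, 7 at 1 mM and 8 at 2 mM, where it called 0%, 0.242% and 2.43% of all genes. The count filter of the edgeR fits left out C1q genes, with all 3 at 0.5 mM and C1QB and C1QC at 1 mM. The DESeq2 fits had no such filter before the fit, but DESeq2's default filter on the mean count applied to the adjusted p. The shares called by DESeq2 are of genes with an adjusted p. DESeq2's default outlier rule was left on, and some of these fits gave no p for LYZ, SPI1 or CYBB.

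The log2 fold changes at 2 mM had wide errors for the genes that depend on C11. LYZ was at 0.44 (SE 2.13, adjusted p = 0.97 by edgeR), CYBB at -0.64 (SE 1.73, adjusted p = 0.94) and MARCO at -1.07 (SE 1.07, adjusted p = 0.80). CD74 was at -0.53 (SE 0.49, adjusted p = 0.79) and CTSS at 0.33 (SE 0.39, adjusted p = 0.84) by the same test. For CSF1R the value was -0.02 (SE 0.75) and for SPI1 0.54 (SE 0.92). C1QA, C1QB and C1QC were at -0.34, -1.15 and -0.63, each with an SE near 1.5. Single libraries decided the direction for 9 of the 10 genes, all but CD74. Without C11 at control the change of LYZ was 5.22 and without C11 at 2 mM it was -4.62, and CYBB went from 2.15 to -2.26 in the same way. For C1QB the decisive library was C7 at control, without which the change was 1.33. CD74 stayed below 0 in each of the 12 fits with a library or line left out, between -0.86 and -0.16, and was at -0.21 without C5 at control. CTSS went from -0.013 without C11 at 2 mM to 0.68 without C11 at control.

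Lines are paired across doses, since the libraries of a line come from 1 hen. With the line as a block the SE at 2 mM was 0.17 for SPI1, at a log2 fold change of 0.66, and 0.12 for CTSS, at 0.34. Neither was called (adjusted p = 0.10 and 0.16 by edgeR). SPI1 was higher at 2 mM than at control in all 4 lines, from 6.78 to 9.61 CPM in C5, 5.01 to 8.37 in C7, 3.33 to 5.97 in C9 and 35.8 to 50.0 in C11. CTSS was also higher in all 4 lines. CD74 was lower in all 4, with a blocked log2 fold change of -0.44 (SE 0.26, adjusted p = 0.35 by edgeR). For C5 these comparisons rest on the library labelled C5 at 2 mM, whose closest match was C9 at 2 mM (r = 0.63). Its highest r with another C5 library was -0.35, and the blocked fit was not run without it. The share of all genes that moved the same way in all 4 lines was not computed. No dose effect is therefore read from the shared direction of SPI1, CTSS or CD74. In C9, LYZ, CYBB, MARCO and all 3 C1q chains were higher at 2 mM than at any other dose. This was not seen in C5 or C11 for LYZ, CYBB or MARCO. In C7 it was seen for CYBB only, with 1.90 CPM at 2 mM and 1.87 CPM at control. The highest r of C9 at 2 mM was 0.65 with its own line and 0.63 with another line (C5 at 2 mM).

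**Figure D4:**
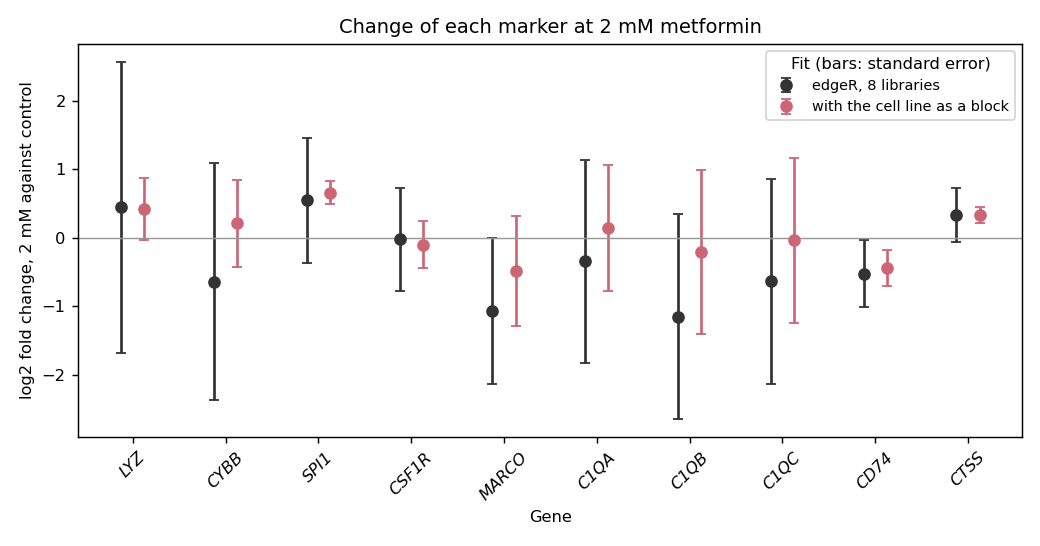
Log2 fold change of each of the 10 genes at 2 mM metformin against control (y axis) from edgeR on 8 libraries, without the cell line (black) and with it as a block (red), with standard errors as bars. The block shortens the bars most for LYZ, SPI1 and CTSS, and SPI1 and CTSS are the genes whose blocked bars stand farthest from 0 for their length.

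Over all 16 libraries the slope per mM was tested in the same way. None of the 10 genes was called, where 0.432% of 14108 genes were, and none had an unadjusted p under 0.05 (14.8% of all genes had). The slopes split into 5 above and 5 below 0, and that of LYZ was 0.52 per mM (SE 1.04). The block left all 10 uncalled while the number of genes called rose from 61 to 700 (4.96%). DESeq2 called 0 of the 7 macrophage genes to which it gave a p, and 4.9% of all genes. Without the C11 library at 0.5 mM, 0 of the 10 were called, and 0.21% of all genes. With the block plus a covariate for the length slope, CTSS alone was called, at 0.23 per mM (SE 0.06, adjusted p = 0.025 by edgeR), where 16.1% of all genes were. At 2 mM the same fit gave SPI1 0.69 (adjusted p = 0.056) and CTSS 0.36 (adjusted p = 0.079), and neither was called, where 5.43% of all genes were. Whether the slope differed between lines was tested as an interaction, and 0 of the 10 genes were called (0% of 14766 genes, 1.73% of which had an unadjusted p under 0.05, and none of the 10). DESeq2 called 0 of the 10 and 0.0199% of all genes.

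At 0.5 mM, all 7 genes tested were lower, with a median log2 fold change of -0.52 and 49.8% of all genes lower. LYZ was at -5.96 (SE 1.97, adjusted p = 0.96 by edgeR) and CYBB at -3.56 (SE 1.62). Without the C11 library at 0.5 mM they were at -6.22 and -4.21, with a C11 library in the control group only. Without C11 in both groups they were at -1.44 (SE 1.07) and -1.40 (SE 1.39), where SPI1 was at 0.35 and CSF1R at 0.19.

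Across the 16 libraries, most of the 10 genes varied together (Pearson's r of log2 CPM, given as a description, since the 4 libraries of a line share their culture). The median r of a gene with the other 9 was 0.77 for CYBB, 0.76 for CTSS, 0.73 for LYZ and C1QC, 0.71 for MARCO and C1QA, 0.68 for CSF1R, 0.64 for SPI1 and 0.63 for C1QB. CD74 stood apart, with a median of 0.11 and a range from -0.14 to 0.49. The C1q chains were closest to each other, with r of 0.95 between C1QA and C1QC and 0.93 between C1QB and C1QC. Within the 12 libraries of C5, C7 and C9, C1QA still went with CYBB (r = 0.81), but SPI1 did not go with CYBB (r = -0.20) or with LYZ (r = -0.13).

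The 8 genes most like the mean standardised profile of the 10 (by r over the 16 libraries, among 10858 genes with a symbol) were ACP5 (r = 0.97), RHOG (0.96), TF (0.95), P2RY13 (0.95), LCP2 (0.94), LCP1 (0.93), FTH1 (0.93) and RAB17 (0.93). ACP5, the tartrate-resistant acid phosphatase of macrophages and osteoclasts, had 22.9 to 39.9 CPM in C11 at control, 1 mM and 2 mM, 2.34 CPM in C11 at 0.5 mM and 0.37 to 12.9 CPM in the other lines. LCP2, a signalling adaptor of blood cells, and P2RY13, a purinergic receptor, had at most 0.69 and 0.45 CPM in the other lines. FTH1, the heavy chain of the iron store ferritin, had 7671 to 8125 CPM in these C11 libraries, 5183 CPM in C11 at 0.5 mM and 2731 to 8490 CPM elsewhere, so its groups overlapped.

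Other genes of the pathways were read from 8 lists by role. Their counts of genes called between lines stand against 14.8% of all genes, and against 18.5% without the C11 library at 0.5 mM. For the CSF1 receptor and related survival signals, the ligand CSF1 had 77.5 to 107 CPM in C11 at control, 1 mM and 2 mM, 27.3 CPM in C11 at 0.5 mM and 21.2 to 80.1 CPM in the other lines (adjusted p = 0.18 for the line by edgeR). In this list 1 of 6 genes was called between lines, the apoptotic cell receptor MERTK, which was highest in C7 at 1 mM with 15.8 CPM, and this share is near that of all genes. Without the C11 library at 0.5 mM, 2 of the 6 were called, with FCER1G, a signalling subunit of Fc receptors, as the other. IRF8, a partner of PU.1, was at 25.5 to 30.9 CPM in those 3 C11 libraries and 28.4 to 80.1 CPM in the other lines (adjusted p = 0.050 by edgeR, not called, but called without the C11 library at 0.5 mM), so that this myeloid transcription factor was not highest where LYZ was.

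Of the partners of CYBB in the NADPH oxidase, CYBA, its membrane partner, was at 240 to 259 CPM in C11 at control, 1 mM and 2 mM and at 82.6 to 301 CPM in the other lines, and NCF4 at 0.70 to 1.26 CPM against 0.35 to 6.60 CPM. CYBA and NCF4 were both highest in C7 at control.

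Of the MHC class II genes, 1 of 8 was called between lines, with and without the C11 library at 0.5 mM, which is near the share of all genes. This was DMB2, a chain of the peptide-loading protein DM, which was highest in C7 at control (18.9 CPM) and lay between 2.57 and 3.72 CPM in the 3 high C11 libraries. The class II beta chains BLB1 and BLB2 were at most at 1.47 and 4.14 CPM in any library, both in C5, the line with the most CD74. At 2 mM and for the dose trend, 0 of the 8 were called by edgeR or DESeq2 without the length slope covariate. At 2 mM, 3 of 8 were lower and 1 higher at an unadjusted p under 0.05 (5.61% and 5% of all genes), and their median log2 fold change was -0.84 against 0.01 for all genes. The fibroblast list was lower with them, with 10 of 10 genes below 0, a median of -0.98, 2 of 10 lower at an unadjusted p under 0.05 and 0 called by edgeR, and DESeq2 called 1 of the 10 (POSTN). Its part in the change of the class II genes was not tested. DMA, the other chain of DM, had a log2 fold change of -1.63 (SE 0.64, adjusted p = 0.42 by edgeR).

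Of the other cathepsins and lysosomal genes, 3 of 11 were called between lines (CTSC, CTSZ and GPNMB). CTSZ, at 371 to 385 CPM in C11 at control, 1 mM and 2 mM, stood above all 13 other libraries, which reached 264 CPM. Of the other complement genes tested, 3 of 4 were called (C1R, C1S and CFD). Both counts were the same without the C11 library at 0.5 mM. The C1 proteases C1R and C1S, which are made by many stromal cells, were highest in C5 (153 and 144 CPM), the line in which the C1q chains were at most at 3 counts. CFD, a protease of the alternative pathway, was at 12.5 to 68.0 CPM in the 3 high C11 libraries and at most 3.71 CPM in the other lines.

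Of the scavenger and pattern receptors, 7 of 10 were called between lines (CD36, TLR7, TLR15, VSIG4, TLR2A, STAB1 and CD14), and 8 without the C11 library at 0.5 mM. VSIG4, a complement receptor of tissue macrophages, was at 13.6 to 17.7 CPM in the 3 high C11 libraries, 3.13 CPM in C11 at 0.5 mM and at most 3.71 CPM in the other lines. TLR7 went the other way, with 2.74 to 6.76 CPM in those libraries and up to 39.1 CPM in C9 at 2 mM, and TLR2A was likewise highest in C9 (24.1 CPM). Of the genes shared by leukocytes, 7 of 12 were called with and without that library, among them LCP1, an actin bundler, at 30.5 to 40.6 CPM against 0.36 to 10.4 CPM, and ITGB2, the integrin beta chain of phagocytes, at 4.74 to 8.34 CPM against 0 to 2.32 CPM. PTPRC (CD45), carried by all leukocytes, was not called (adjusted p = 0.25 by edgeR), with 5.21 to 7.46 CPM in the 3 high C11 libraries and 1.03 to 7.96 CPM in the other lines. PTPRC was thus as high in some libraries with little LYZ as in C11.

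**Figure D5:**
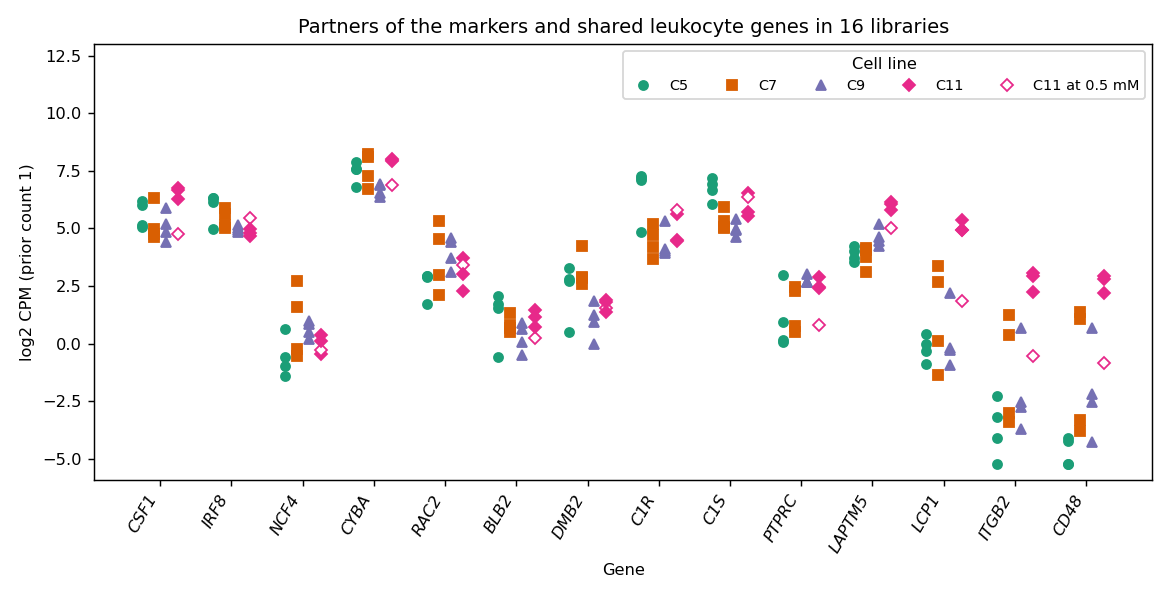
Level of genes of the macrophage pathways and of leukocytes (x axis) as log2 CPM (y axis, prior count 1) in the 16 libraries, with 1 point per library, coloured by cell line, and C11 at 0.5 mM as an open symbol. LAPTM5, LCP1, ITGB2 and CD48 are highest in the 3 filled C11 points, while IRF8, C1R and C1S are not.

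In none of the 8 role lists was a gene called by edgeR at 2 mM or for the dose trend in the fit without the block. With the block and the length slope covariate, 5 of the 8 MHC class II genes were called for the trend, where 16.1% of all genes were. Of these RFXANK, DMA, DMB1 and DMB2 were lower, DMB2 by a log2 change of -0.66 per mM (SE 0.12), and RFXAP was higher, at 0.27 per mM. Also called for the trend were 3 of the 12 leukocyte genes and 1 gene each of the NADPH oxidase (HVCN1), cathepsin (LAMP1) and scavenger receptor (TLR7) lists. At 2 mM the same fit called RAC2 of the NADPH oxidase list and CTSK of the cathepsin list, both lower, where 5.43% of all genes were called. Of the lists of other cell types, it called 2 of the 10 fibroblast genes (POSTN and FAP), lower, both at 2 mM and for the trend. At 2 mM it also called ERG (endothelial), higher. For the trend it also called VWF (endothelial), SLC4A1 (erythroid) and MSLN (mesothelial), higher, and EBF1 (B cell), lower. VWF and SLC4A1 were at most at 2.20 and 2.02 CPM in any library. Without block or covariate, DESeq2 called VWF at 2 mM, at a log2 fold change of 1.72.

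Markers of other cell types were read beside the macrophage genes, and their part in the results was not tested. Granulocyte genes moved with LYZ in part. The summed level of that list was 781 to 2993 CPM in C11 at control, 1 mM and 2 mM, 198 CPM in C11 at 0.5 mM, 186 to 218 CPM in C7, 91.2 to 171 CPM in C5 and 22.8 to 56.1 CPM in C9. It consisted mainly of MMP9 and IL8L1, which are also made by macrophages. The heterophil genes CATHL2, CATHB1 and LECT2 were under 1 CPM in every library. CSF3R, the receptor for granulocyte colony-stimulating factor, was at 4.06 to 6.31 CPM in the 3 high C11 libraries, 0.15 CPM in C11 at 0.5 mM, 3.41 and 2.68 CPM in C7 at control and 2 mM and under 1 CPM in the other 10 libraries. Of the 4 granulocyte genes tested, 2 were called between lines, and 3, with CSF3R, without the C11 library at 0.5 mM. CD3E, of the T cell receptor complex, was at 6.87 to 15.2 CPM in the 3 high C11 libraries and 0.45 to 3.08 CPM in the other lines. CD3D, of the same complex, was at 3.48 to 4.46 CPM and 0.72 to 2.79 CPM. LCK overlapped, with 70.65 to 121 CPM and 59.9 to 222 CPM. CD4, CD8A, CD5, CD28 and ZAP70 were under 1 CPM in every library. In the T cell list, whose summed level was 89.7 to 148 CPM in those libraries and 157 CPM in C11 at 0.5 mM and up to 244 CPM in C5, 3 of 6 genes were called with and without that library.

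As for the role lists, the shares of all genes called between lines were 14.8%, and 18.5% without the C11 library at 0.5 mM. Of the B cell list 0 of 2 genes were called by edgeR, both with an unadjusted p under 0.05, but 2 of 2 (BTK and EBF1) without that library and 1 of 2 by DESeq2. Of the dendritic cell list 0 of 6 were called by edgeR with and without it, 1 of 6 with an unadjusted p under 0.05, and 1 of 6 by DESeq2. PAX5, CD79B, FLT3 and XCR1 were under 1 CPM throughout. Of the thrombocyte genes 2 of 6 were called (3 without that library) and of the erythroid genes 1 of 3 (also 1 without it), with the listed globins under 1 CPM in every library. Of the endothelial genes 1 of 6 was called, near the share of all genes, and 2 without that library. This was CLDN5, a tight junction protein, at 40.9 to 56.6 CPM in the 3 high C11 libraries, 3.51 CPM in C11 at 0.5 mM and at most 21.2 CPM in the other lines. ERG and PECAM1 were detected throughout (6.33 to 71.5 and 2.17 to 20.1 CPM), while KDR, TEK, TIE1 and CDH5 were under 1 CPM in every library. The fibroblast list had 4 of 10 genes called (5 without that library) and a summed level of 18130 to 22810 CPM in the 3 high C11 libraries and 10920 CPM in C11 at 0.5 mM. The mesothelial list had 1 of 7 called (3 without that library) and was at 51.3 to 76.6 CPM and 270 CPM in the same libraries. Of the epithelial list 3 of 3 were called with and without it. The cultures are labelled as ovarian cancer cells. Of the epithelial genes, KRT7 was at 205 to 322 CPM in the 3 high C11 libraries and at 313 to 860 CPM in the other lines. KRT18 was at 2.37 to 3.37 CPM in those C11 libraries and at 0.24 to 28.5 CPM in the other lines. CDH1 went the other way from KRT7, with 5.80 to 7.15 CPM in those C11 libraries and at most 3.44 CPM in the other lines. EPCAM, ESRP1 and CLDN3 were under 1 CPM in every library.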

How the data were processed

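RNA was sequenced from 4 COVCAR lines at 4 doses, with 1 library each. Per the labels, reads were aligned with HISAT2 2.1.0 to GRCg6a and counted with featureCounts. The authors counted by strand on exons, let a read that overlaps several genes count for each, and deposited the raw count per gene and library without normalization. The other deposited column used is the exonic length. The authors' tables of their own DESeq2 comparisons hold fold changes and p-values and were not used here.

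Fits were made with edgeR 4.0.16 and DESeq2 1.42.0 in R 4.3.3. Counts were scaled by TMM to CPM, and log2 CPM used a prior count of 1. TPM was computed from counts and lengths. The main test was edgeR's quasi-likelihood test (two-sided) after filterByExpr, with Benjamini-Hochberg adjustment over all genes tested, on 8 libraries per dose comparison and on 16 for the dose trend, the cell line and their interaction. No library was dropped or imputed in these fits. A call needed a p under 0.01 and an adjusted p under 0.05. The fits were also run on simulated counts, drawn from a single mean level per gene with known changes added. These counts held no other line differences, no mismatched libraries and no length slope, so that run does not cover such features of these data. Alternatives were DESeq2, RLE normalization, the filter left out or set to a mean CPM of 1 or more, all 16 libraries in one fit, the line as a replicate block, the length slope as a covariate, and lines, doses or libraries left out. The fits without C11 at 0.5 mM for the trend, line and interaction were chosen after seeing the data.

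The members, the 8 role lists and the 10 lists of other cell types were chosen with earlier results of these data known. Genes named are the members, fixed partners, the defining markers of other cell types, and the 8 genes closest to the members' profile. Others named in a list were those called between lines or highest in it, chosen after their values were seen. IL34, CIITA, CEBPA and NCF1 were not analysed here, as no gene of the table carries that symbol. Some genes of the lists are not reported here. No symbol is given for 10393 genes.

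Libraries are paired by line, since each line is from 1 hen. Deviations from the dose means had a median correlation of 0.62 within a line (24 pairs, -0.45 to 0.90) and -0.24 between lines (96 pairs). Treatments were in triplicate, and how wells became 1 library is not stated. The p-values therefore measure the spread between these libraries. Floors of 3 counts cover counting error only.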

Additional observations from a re-analysis of the deposited data

Results flagged for a closer look

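In groups of 4 libraries, a value whose gap to its neighbour was over 0.829 of the group's range (Dixon's 95% critical value) was noted. Of 80 groups (10 genes by 4 doses and 4 lines), 20 had one. The rate of about 1 in 20 holds for independent groups of normally spread values. Here each library entered both a dose and a line group, and a group with 0 counts in 3 libraries was always noted. No excess over that rate is therefore read from the count. C11 stood far above the other lines for LYZ at control (69.95 CPM), 1 mM (100.7 CPM) and 2 mM (95.58 CPM), and for SPI1 at control (35.77 CPM), 1 mM (44.19 CPM) and 2 mM (49.97 CPM). It did so for CYBB at control (18.33 CPM) and 1 mM (13.66 CPM) and for CSF1R at control (23.51 CPM). The same held for C1QB and C1QC at 1 mM (0.566 and 1.29 CPM). At 0.5 mM the gap of C1QB and C1QC in C11 (0.0764 and 0.127 CPM, which are 3 and 5 counts) is set by 0 counts in the 3 other lines, and 3 counts are what a count of 0 allows, so that no difference is read from C1QB.

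C7 stood apart for C1QB at control (2.93 CPM) and C5 for CD74 at 0.5 mM (39.87 CPM). Among the 4 C9 libraries, that at 2 mM was far above the others for CYBB (1.33 CPM), MARCO (2.13 CPM), C1QB (0.333 CPM) and C1QC (0.358 CPM). Among the 4 C5 libraries, C1QB at control (0.0834 CPM, 3 counts) had such a gap to 0 counts in the 3 others, which allow as many, and no difference is read from it.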

How the results depend on the processing

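No macrophage gene was called at 0.5, 1 or 2 mM under any alternative run. Over all genes, DESeq2 called 34 at 1 mM, 365 at 2 mM, 731 for the trend, 4775 for the line and 4 for the interaction, the replicate block with the length slope 234, 722 and 2277 (1 mM, 2 mM, trend), the replicate block alone 700 for the trend and 0 at 2 mM, all libraries in one fit 3 at 2 mM, and no count filter 40 for the trend. The fit with the block and length slope called 1 macrophage gene for the trend (CTSS). Without the control, 0.5, 1 or 2 mM libraries the trend had 0, 1, 26 or 0 calls. For the line, 118 genes and 1 of the macrophage genes (SPI1) were called without the control libraries, and 149 and 2 (CYBB and SPI1) without those at 1 mM. DESeq2 gave no p for LYZ, SPI1 or CYBB in some fits.

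Leaving out a line or the C11 library at 0.5 mM, the trend had 0 to 107 calls (30 without that library) and the line 337 to 2802, with 1 to 8 macrophage genes. At 2 mM the replicate block turned the direction of C1QA (0.14) and CYBB (0.21), and the block with the length slope that of CSF1R (0.12), C1QA (0.24), C1QB (0.50), C1QC (0.34), MARCO (0.078) and CYBB (0.21), none of them called and the cause not tested. When single libraries or whole lines were omitted, the 2 mM log2 fold change ran from -4.62 to 5.22 for LYZ, -0.69 to 0.81 for CSF1R, -0.86 to -0.16 for CD74, -1.38 to 0.39 for C1QA, -1.78 to 1.33 for C1QB, -1.51 to 0.75 for C1QC, -1.62 to 0.16 for MARCO, -0.68 to 1.88 for SPI1, -2.26 to 2.15 for CYBB and -0.013 to 0.68 for CTSS. Where an arm held 3 libraries, the fit pooled the spread. The C1q counts are few, and counts of 3 or fewer could not be told from 0.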
